A study of Mus musculus with 12 samples.

Results

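The genes described here encode 10 parts of the inflammasome and pyroptosis machinery of mouse macrophages: the sensors Nlrp3, Nlrc4 and Nlrp1b, the receptors Naip2 and Naip5 that act through Nlrc4, the adaptor Pycard (ASC), the caspases Casp1 and Casp4, the pore protein gene Gsdmd and the membrane rupture gene Ninj1. They were chosen by name, and all 10 were found by their Ensembl identifiers among the 56941 genes of the deposited count tables. All 10 also passed the filter on low counts in every comparison, with between 228 and 8253 counts in a library.

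RNA was sequenced from 12 cultures of macrophages grown from bone marrow monocytes of C57Bl/6J mice, 3 in each of 4 groups. WT M0 macrophages came from wild-type mice and were differentiated for 7 days with L929-conditioned medium, the supernatant of a mouse fibroblast line that supplies M-CSF. WT M2 macrophages were exposed after that to 20 ng/mL IL-4 for 72 hours, while M0 wells were kept under otherwise identical conditions and received no IL-4. The KO M0 and KO M2 groups were treated in the same way but came from miR-210 knockout mice, which descend from a cross of a floxed miR-210 allele with Gata-1 Cre mice, with WT and KO animals bred from heterozygotes. All cells are cultured macrophages that were given no microbial stimulus, and the ages of the donors are not given in the sources used here. How many animals supplied the cultures is not stated there either, so p-values measure the spread between these cultures, which may be partly technical.

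An inflammasome is a protein platform that assembles when a cytosolic sensor meets its trigger. Nlrp3 responds to potassium efflux and many other disturbances, the Naip proteins bind bacterial flagellin or secretion-system proteins and hand the signal to Nlrc4, and Nlrp1b responds to bacterial proteases. The platform recruits caspase-1, directly or through Pycard, and caspase-1 matures IL-1 beta and IL-18 and cleaves gasdermin D. Caspase-4 (the mouse caspase-11) senses cytosolic lipopolysaccharide and cleaves gasdermin D without a sensor platform. Gasdermin D fragments form pores in the plasma membrane, and ninjurin-1 then tears the membrane open. In macrophages Nlrp3, Casp4 and Il1b are known to need a priming signal to reach high levels.

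The sequences below are shown because the knockout removes a microRNA and because polarization acts through the factor STAT6, so that the letters each regulator could read can be set beside the values. The mature miR-210-3p from RefSeq is printed with its seed (bases 2 to 8) in capitals.
mmu-miR-210-3p: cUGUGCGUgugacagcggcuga
The complement of that seed, ACGCACA, was found in the 3′ UTR of the canonical transcript of 1 of the 10 genes, Pycard, beside 3.48% of 20854 protein-coding genes. It starts at base 2960 of a 3′ UTR of 3326 bases (GRCm39, chr7:127588918-127588924, minus strand) and is in capitals here.
Pycard 3′ UTR: tcttaatgACGCACAaatctcct
No member had this match in its coding sequence.

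Promoters were read from GRCm39, from 250 bases before to 50 bases after the start of the canonical transcript. A STAT match with a spacer of 4 bases, TTCNNNNGAA, lay in the windows of Nlrp3 and Nlrp1b and in 6.81% of the windows of 21770 protein-coding genes. A STAT match with a spacer of 3 bases, TTCNNNGAA, was in the window of Naip2 and in 8.81% of all windows. The NF-kB letters GGGANTTNCC were in the window of Casp4 and in 1.4% of all windows. The interferon response letters GAAANNGAAA (3.84% of all windows) and the PU.1-IRF letters GGAANNGAAA (2.97% of all windows) were in no member's window. Both strands were searched, no member's window held more than 1 of these motifs, and a match is a description of letters, not of a bound site. The windows of the 2 members with the longer STAT match and of Casp4 are printed on the gene's own strand with the match in capitals.
Nlrp3 (chr11:59433262-59433561, plus strand): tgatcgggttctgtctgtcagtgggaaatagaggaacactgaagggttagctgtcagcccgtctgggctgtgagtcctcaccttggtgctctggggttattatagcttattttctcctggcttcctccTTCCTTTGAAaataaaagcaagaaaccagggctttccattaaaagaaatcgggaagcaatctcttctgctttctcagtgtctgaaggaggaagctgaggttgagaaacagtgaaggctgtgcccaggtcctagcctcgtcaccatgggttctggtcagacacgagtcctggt
Nlrp1b (chr11:71092233-71092532, minus strand): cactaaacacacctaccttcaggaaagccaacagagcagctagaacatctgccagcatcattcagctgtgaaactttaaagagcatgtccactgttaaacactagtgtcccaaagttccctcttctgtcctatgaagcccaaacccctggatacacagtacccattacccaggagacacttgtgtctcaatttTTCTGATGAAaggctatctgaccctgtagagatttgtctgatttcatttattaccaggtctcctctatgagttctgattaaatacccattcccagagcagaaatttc
Casp4 (chr9:5308593-5308892, plus strand): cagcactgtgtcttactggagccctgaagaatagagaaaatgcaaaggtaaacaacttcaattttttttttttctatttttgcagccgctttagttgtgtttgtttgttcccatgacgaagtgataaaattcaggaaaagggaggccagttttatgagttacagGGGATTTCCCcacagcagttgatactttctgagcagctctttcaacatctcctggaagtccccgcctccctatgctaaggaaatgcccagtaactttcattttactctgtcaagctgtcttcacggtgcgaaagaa
The match started 122 bases before the transcript start in Nlrp3, 57 before it in Nlrp1b and 86 before it in Casp4.

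Library totals ran from 7930525 to 10167695 counts, and replicate libraries differed beyond counting noise in every pair. The microRNA gene Mir210 had 0 counts in all 6 KO libraries and 1 to 5 counts in each of the 6 WT libraries, so this check of the labels rests on few reads. The 6 macrophage markers looked for summed to between 3319 and 4009 CPM (counts scaled to a library of 1000000) in every library. Single markers moved within that sum. Fcgr1 was at 394 to 581 CPM in WT M0, 314 to 350 in KO M0, 58.6 to 67.4 in WT M2 and 39.7 to 65.1 in KO M2. From WT M0 to WT M2, Mertk went from 193 to 212 CPM down to 73.9 to 83.6. Itgam went from 237 to 313 CPM up to 408 to 454. The part of these shifts in the results was not tested. The 4 markers of alternative activation summed to 1539 to 2084 CPM in M0 and to 6425 to 7016 CPM in M2. Markers of neutrophils (9 genes), T cells (5), erythroid cells (3 of 4 in the tables) and fibroblasts (5) summed to at most 5.89 CPM each in any library. The neutrophil marker S100a8 (0.515 to 3.58 CPM) and the T cell marker Cd4 (1 to 5.2 CPM) had counts in every library. Ly6g and Cd3e were at 0 throughout. The 4 B cell markers summed to 5.93 to 10.2 CPM, nearly all of it Cd79b, with Ms4a1 at 0 in every library. The 5 dendritic cell markers summed to 0.412 to 1.32 CPM in M0 and to 11.1 to 19.3 CPM in M2, nearly all of it Zbtb46, with Flt3 at 0 in every M2 library. This list moved with polarization, and its part in the results was not tested. Each group carries its own batch name in the labels, so a batch effect cannot be told apart from a group effect.

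Levels were compared between genes per kilobase of exon, as CPM per kilobase. Ninj1 stood far above the others in all 4 groups, at 264 ± 27.6 CPM per kilobase in WT M0, 301 ± 29.1 in KO M0, 146 ± 2.38 in WT M2 and 163 ± 10.1 in KO M2 (SD, n = 3 each). In WT M0 it was followed by Pycard (38.1 ± 4.87 CPM per kilobase), Gsdmd (37.4 ± 3.32), Nlrp3 (29.4 ± 6.08), Naip2 (27 ± 3.39) and Casp1 (25.3 ± 2.73), and the libraries of each of these overlapped those of the next. Naip5 (18.9 ± 1.25), then Nlrc4 (11.1 ± 1.12) with Casp4 (11.1 ± 0.737), and last Nlrp1b (8.67 ± 0.7 CPM per kilobase) came below them, and only Nlrc4 and Casp4 overlapped among these neighbours. Among Nlrp3, Nlrc4 and Nlrp1b, Nlrp3 was the most abundant per length in WT M0, and Nlrp1b was the least with the exon union (8.67 CPM per kilobase) but not with the longest transcript (12.7, beside 11.3 for Nlrc4).
The order shifted with IL-4. In WT M2 the genes after Ninj1 were Gsdmd (43.4 ± 2.54 CPM per kilobase), Pycard (41.6 ± 0.679) and Casp1 (30.6 ± 1.59), and Nlrp3 had moved below Casp1 to 21.9 ± 1.05 with no overlap. In KO M0 Nlrp3 was second at 40.5 ± 12.9 CPM per kilobase, overlapping Gsdmd (37.8 ± 4.05), while in KO M2 it was sixth at 18.7 ± 2.36. The place of a gene depends on the length used: with the longest transcript in place of the exon union, Gsdmd was second in every group and Casp1 moved above Nlrp3 in WT M0. The canonical Pycard transcript has 4122 bases, most of them 3′ UTR, and the counts do not say which Pycard transcript was read.

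**Figure D1:**
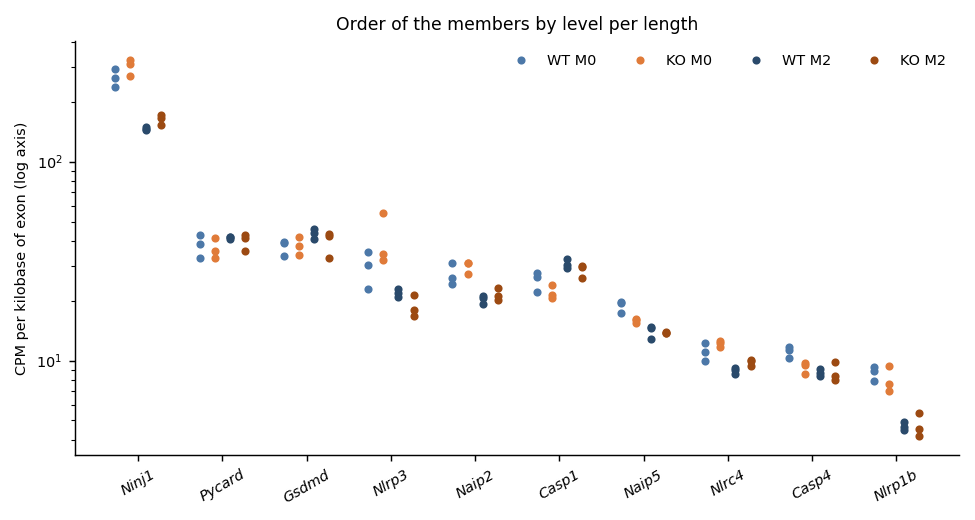
CPM per kilobase of exon on a log axis for the 10 genes, ordered by their mean in WT M0, with 1 point for each of the 3 libraries of the 4 groups. Ninj1 lies at 146 to 301 as group means while every other gene has group means of 43.4 or less, and the KO M0 points of Nlrp3 have a coefficient of variation of 31.9%.

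The first question was what IL-4 polarization did to the machinery. In WT cells 7 of the 10 genes were called lower in M2 (20.9% of the 14266 genes tested were called lower) and 1 was called higher (22.1% of all genes). The genes called lower were all 5 sensors and receptors, Casp4 and Ninj1, and the gene called higher was Casp1. In KO cells 5 of 10 were called lower (16.4% of the 14331 genes tested) and again Casp1 was called higher (17.4% of all genes). Nlrp3, Nlrc4, Nlrp1b, Naip2 and Ninj1 were called lower in both genotypes, while Pycard and Gsdmd were called in neither. The median log2 fold change of the members was -0.37 in WT, beside -0.0012 over all genes tested, and -0.26 in KO, beside -0.0078. Called means that the adjusted p was under 0.05 and the fold change was beyond 1.2 times in either direction, and values given below without a unit are log2 fold changes. In bulk RNA, fewer cells of a type and less RNA per cell cannot be told apart.
The second question was whether loss of miR-210 changed the same genes. None of the 10 was called between KO and WT, either in M0, where 0.461% of 14089 genes were called, or in M2, where 0.98% of 13980 were. In M0 edgeR gave 3 of the 10 members an unadjusted p under 0.05, beside 1410 of all 14089 genes tested. In M2 it gave 2 of the 10 such a p, beside 1498 of 13980 genes. The DESeq2 Wald test called no member in either comparison. The members' log2 fold changes lay between -0.26 and 0.46 in M0 and between -0.22 and 0.16 in M2. A gene that misses the threshold is not shown to be equal, and the intervals are given for each member below.

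**Figure D2:**
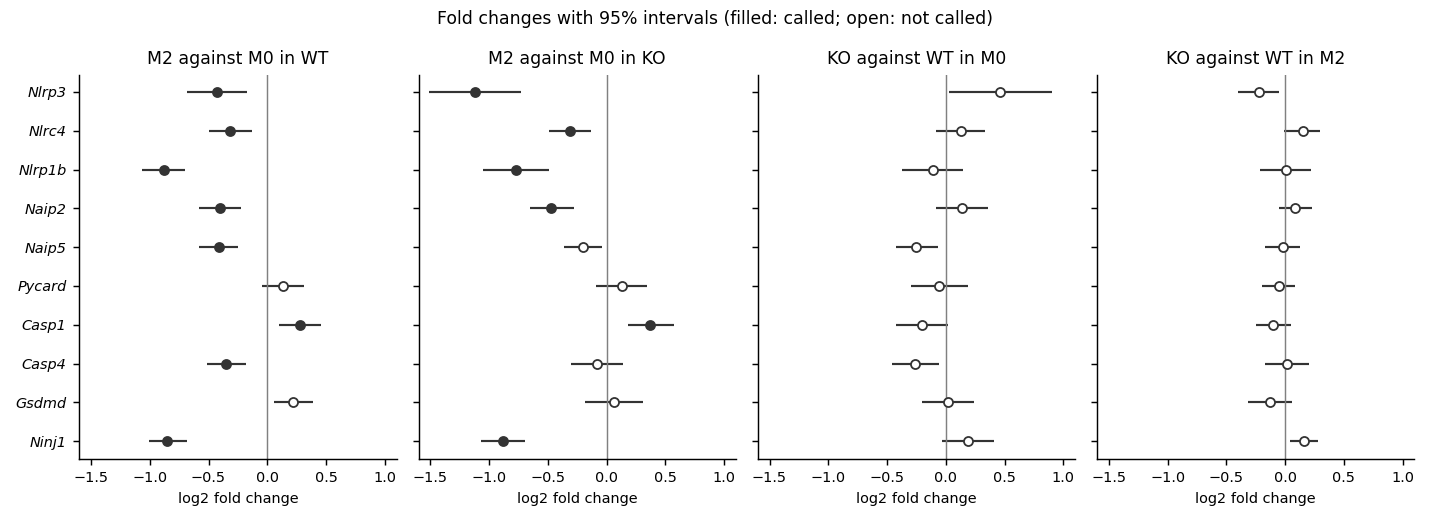
Log2 fold change of each of the 10 genes (x axis) with its 95% interval in the 4 comparisons, filled where called and open where not. The filled points lie left of 0 for Nlrp3, Nlrc4, Nlrp1b, Naip2 and Ninj1 and right of 0 for Casp1 in both polarization panels. Naip5 and Casp4 are filled, left of 0, in the WT polarization panel only. All points are open in both KO against WT panels.

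Nlrp3 (ENSMUSG00000032691, GRCm39, chr11:59432394-59457782, plus strand, 10 exons) encodes the sensor that needs priming. Its levels were 93.3, 142 and 122 CPM in WT M0 libraries 1 to 3, 139, 130 and 225 in KO M0, 88.8, 84.5 and 93 in WT M2, and 68, 72.9 and 86.5 in KO M2. KO M0 library 3 stood apart, at 225 CPM, and its group had the widest spread of any member in any group (a coefficient of variation of 31.9%, against a median of 7.58% over the 40 combinations of gene and group). The M2 libraries lay below every M0 library of the same genotype, and KO overlapped WT within each state. The log2 fold change of M2 against M0 was -0.43 in WT (standard error 0.12, adjusted p = 0.0094) and -1.12 in KO (standard error 0.18, adjusted p = 0.00029), so Nlrp3 was 1.34-fold lower in WT M2 and 2.17-fold lower in KO M2. The call in WT was lost when all 12 libraries were fitted together (adjusted p = 0.056). In WT the value ran from -0.28 without WT M0 library 2 to -0.57 without WT M0 library 1, and both were called.
Between KO and WT, the log2 fold change of Nlrp3 was 0.46 in M0 (95% interval 0.023 to 0.90, adjusted p = 0.46) and -0.22 in M2 (95% interval -0.40 to -0.048, adjusted p = 0.3). Neither was called, and both values depended on single libraries. Without KO M0 library 3 the M0 value was 0.17, and without KO M2 library 3 the M2 value was -0.33 with an adjusted p of 0.019, which is past the threshold. Without the filter on low counts the M0 value was 0.47 and called (adjusted p = 0.00036), whereas DESeq2 gave an adjusted p of 0.91. The difference between the polarization fold changes, KO minus WT, was -0.69 on the log2 scale (95% interval -1.21 to -0.16, unadjusted p = 0.013, adjusted p = 0.37). It was -0.40 without KO M0 library 3, and it was called without the filter (-0.70, adjusted p = 5.4e-06). A difference between genotypes in the fall of Nlrp3 was therefore not called by the test used throughout.

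Nlrc4 (ENSMUSG00000039193, chr17:74732433-74766165, minus strand) encodes the sensor that assembles behind the Naip receptors. WT M0 libraries had 48.5, 59.3 and 53.6 CPM, KO M0 56.8, 60.3 and 59.3, WT M2 41.4, 44.6 and 43.1, and KO M2 45.2, 49.1 and 48. Every M2 library was below every M0 library of its genotype by a modest step. M2 against M0 gave -0.32 in WT (standard error 0.086, adjusted p = 0.0076) and -0.31 in KO (standard error 0.082, adjusted p = 0.011). These calls are near the limits: without WT M0 library 2 the WT value was -0.24, under the fold limit, and without KO M2 library 1 the KO value was -0.28 with an adjusted p of 0.069. The KO libraries lay above the WT libraries in M2 with a log2 fold change of 0.15 that was not called (95% interval -0.011 to 0.30, adjusted p = 0.52), and in M0 it was 0.13 (95% interval -0.08 to 0.33). Of the 50-base stretches of Nlrc4, 17.4% also occur in Slc30a6 on either strand, so its counts may be less certain. Strand-specific counting can separate reads of opposite strands, and the strand of these stretches was not looked at.

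Nlrp1b (ENSMUSG00000070390, chr11:71043928-71121559, minus strand), the sensor of bacterial proteases, had the lowest log2 fold change of the members in WT. Its levels were 49.8, 58.3 and 55.8 CPM in WT M0, 44.2, 59.5 and 48.1 in KO M0, 29.4, 31.1 and 28.2 in WT M2, and 34.4, 26.3 and 28.5 in KO M2. The M0 and M2 libraries did not overlap. M2 against M0 gave -0.88 in WT (standard error 0.086, adjusted p = 1.7e-06), a 1.84-fold lower level, and -0.77 in KO (standard error 0.13, adjusted p = 0.00046). Both calls held in all 6 fits that left out 1 library. KO differed from WT by -0.11 in M0 (95% interval -0.37 to 0.15) and 0.0059 in M2 (95% interval -0.21 to 0.22), neither called.
The related gene Nlrp1a went the other way: it rose by 1.58 in WT (standard error 0.13, adjusted p = 4.6e-07) and by 1.62 in KO (standard error 0.16, adjusted p = 5.9e-06), from 5.57 to 7.11 CPM in WT M0 libraries to 17.5 to 19.5 CPM in WT M2. Of the 50-base stretches of Nlrp1b, 1.32% are shared with Nlrp1a.

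Naip2 and Naip5, receptors for secretion-system proteins and for flagellin, lie 9553 bases apart on chromosome 13. Naip2 (ENSMUSG00000078945, chr13:100278929-100338694, minus strand) was at 203, 159 and 171 CPM in WT M0, 204, 180 and 204 in KO M0, 126, 136 and 140 in WT M2, and 140, 153 and 132 in KO M2. Naip5 (ENSMUSG00000071203, chr13:100348247-100382831, minus strand) was at 103, 90.7 and 101 CPM in WT M0, 80.6, 84.4 and 83.2 in KO M0, 66.8, 77 and 76.2 in WT M2, and 72.4, 71.7 and 71.9 in KO M2. For both genes every M2 library was below every M0 library of its genotype. Naip2 fell, with -0.40 in WT (standard error 0.084, adjusted p = 0.0016) and -0.47 in KO (standard error 0.085, adjusted p = 0.00085). Naip5 fell in WT (-0.41, standard error 0.077, adjusted p = 0.00059). In KO its value was -0.20 with an adjusted p of 0.053, which missed both the p limit and the fold limit. The KO M0 libraries of Naip5 all lay below the WT M0 libraries, with a log2 fold change of -0.25 that was not called (95% interval -0.42 to -0.065, unadjusted p = 0.012, adjusted p = 0.3). The difference between the polarization fold changes of Naip5 was 0.22 (adjusted p = 0.56), so the fall is not shown to differ between genotypes. Naip2 differed between KO and WT by 0.14 in M0 (95% interval -0.081 to 0.36) and 0.085 in M2 (95% interval -0.056 to 0.23).
These receptor genes resemble each other, and their counts are uncertain for that reason. The coding sequences of Naip2 and Naip5 are 87.2% identical over 4351 aligned columns, while their promoter windows are 46.3% identical. Of the 50-base stretches of Naip5, 37.5% occur in other genes, mostly in Naip6 (22.3%), and of those of Naip2, 15%, mostly in Naip1 (9.47%). Naip6 fell as well, with -0.40 in WT (adjusted p = 0.00038) and -0.28 in KO (adjusted p = 0.0081). Naip1, named for its likeness to Naip2 after its values were seen, was near the limit of detection, between 0.515 and 3.65 CPM in every library, and went the other way. It was called higher in M2 in both genotypes, with 1.54 in WT (standard error 0.43, adjusted p = 0.0089) and 1.09 in KO (standard error 0.30, adjusted p = 0.012). The WT call was lost without WT M0 library 3 (1.31, adjusted p = 0.051) or WT M2 library 1 (1.21, adjusted p = 0.054), and the KO call without KO M2 library 3 (0.99, adjusted p = 0.05).

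Pycard (ENSMUSG00000030793, chr7:127588558-127593039, minus strand), the adaptor that links sensors to caspase-1, had 180, 139 and 164 CPM in WT M0, 174, 139 and 151 in KO M0, 173, 178 and 178 in WT M2, and 175, 181 and 150 in KO M2. The ranges of all 4 groups overlapped. M2 against M0 gave 0.13 in WT (95% interval -0.044 to 0.31, adjusted p = 0.2) and 0.13 in KO (95% interval -0.092 to 0.34, adjusted p = 0.37). KO against WT gave -0.058 in M0 (95% interval -0.30 to 0.19) and -0.056 in M2 (95% interval -0.20 to 0.088). Pycard is the member with the miR-210-3p seed match shown above, and its KO against WT intervals include 0 in both states. Of its 50-base stretches, 10.7% occur in Gm45205.

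Casp1 and Casp4 are neighbours on chromosome 9, 1538 bases apart and on the same strand, and moved differently. Casp1 (ENSMUSG00000025888, chr9:5298508-5307290) had 82.1, 69.7 and 86.1 CPM in WT M0, 74.9, 64.8 and 67 in KO M0, 91.3, 101 and 95 in WT M2, and 92.6, 93.3 and 81.5 in KO M2. Its M2 libraries were above all M0 libraries of their genotype, the opposite order to that of the sensor genes. The log2 fold change was 0.28 in WT (standard error 0.082, adjusted p = 0.013) and 0.37 in KO (standard error 0.089, adjusted p = 0.0054). The KO call held in all 6 fits that left out 1 library. The WT call was lost without WT M0 library 2 (0.19) and without WT M2 library 2 (0.24, adjusted p = 0.062). KO against WT gave -0.20 in M0 (95% interval -0.42 to 0.016, adjusted p = 0.55) and -0.099 in M2 (95% interval -0.25 to 0.05).
Casp4 (ENSMUSG00000033538, chr9:5308828-5336783), the sensor of cytosolic lipopolysaccharide, had 61.4, 53.9 and 59.3 CPM in WT M0, 50.9, 49.9 and 44.8 in KO M0, 45.5, 43.7 and 47.4 in WT M2, and 51.6, 44.2 and 41.7 in KO M2. WT M0 was the high group: its libraries lay above all libraries of the other 3 groups. Casp4 fell in WT (-0.35, standard error 0.077, adjusted p = 0.0021), while M2 against M0 in KO gave -0.082 (95% interval -0.30 to 0.14, adjusted p = 0.58). KO against WT in M0 gave -0.26 (95% interval -0.46 to -0.062, unadjusted p = 0.015, adjusted p = 0.32), and in M2 it gave 0.014 (95% interval -0.17 to 0.20). The difference between the polarization fold changes was 0.27 (95% interval 0.0047 to 0.54, unadjusted p = 0.047, adjusted p = 0.55). As for Naip5, the call in WT and not in KO is not a difference between genotypes that passed a test.

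Gsdmd (ENSMUSG00000022575, chr15:75733974-75739257, plus strand), the pore gene, had 118, 101 and 118 CPM in WT M0, 126, 102 and 113 in KO M0, 122, 137 and 131 in WT M2, and 127, 130 and 98.1 in KO M2. The WT M2 libraries lay above the WT M0 libraries, and the KO groups overlapped. M2 against M0 gave 0.22 in WT (standard error 0.076, adjusted p = 0.028), which passed the p limit but not the fold limit. It was 0.26 and called without WT M2 library 1 (adjusted p = 0.033). In KO it was 0.063 (95% interval -0.18 to 0.31, adjusted p = 0.71). KO against WT gave 0.017 in M0 (95% interval -0.20 to 0.24) and -0.13 in M2 (95% interval -0.32 to 0.058).
Ninj1 (ENSMUSG00000037966, chr13:49340945-49349743, plus strand), whose product breaks the membrane after the pore has formed, fell in both genotypes. It had 778, 631 and 703 CPM in WT M0, 868, 717 and 820 in KO M0, 390, 384 and 397 in WT M2, and 440, 459 and 406 in KO M2. The lowest M0 library was far above the highest M2 library. M2 against M0 gave -0.85 in WT (standard error 0.076, adjusted p = 7.8e-07), a 1.8-fold lower level, and -0.88 in KO (standard error 0.087, adjusted p = 4.8e-06), a 1.84-fold lower level. Both calls held in all 6 fits that left out 1 library. The KO libraries lay above the WT libraries in M2 by a log2 fold change of 0.16 that was not called (95% interval 0.043 to 0.28, adjusted p = 0.26), and in M0 the value was 0.19 (95% interval -0.036 to 0.41, adjusted p = 0.6).

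**Figure D3:**
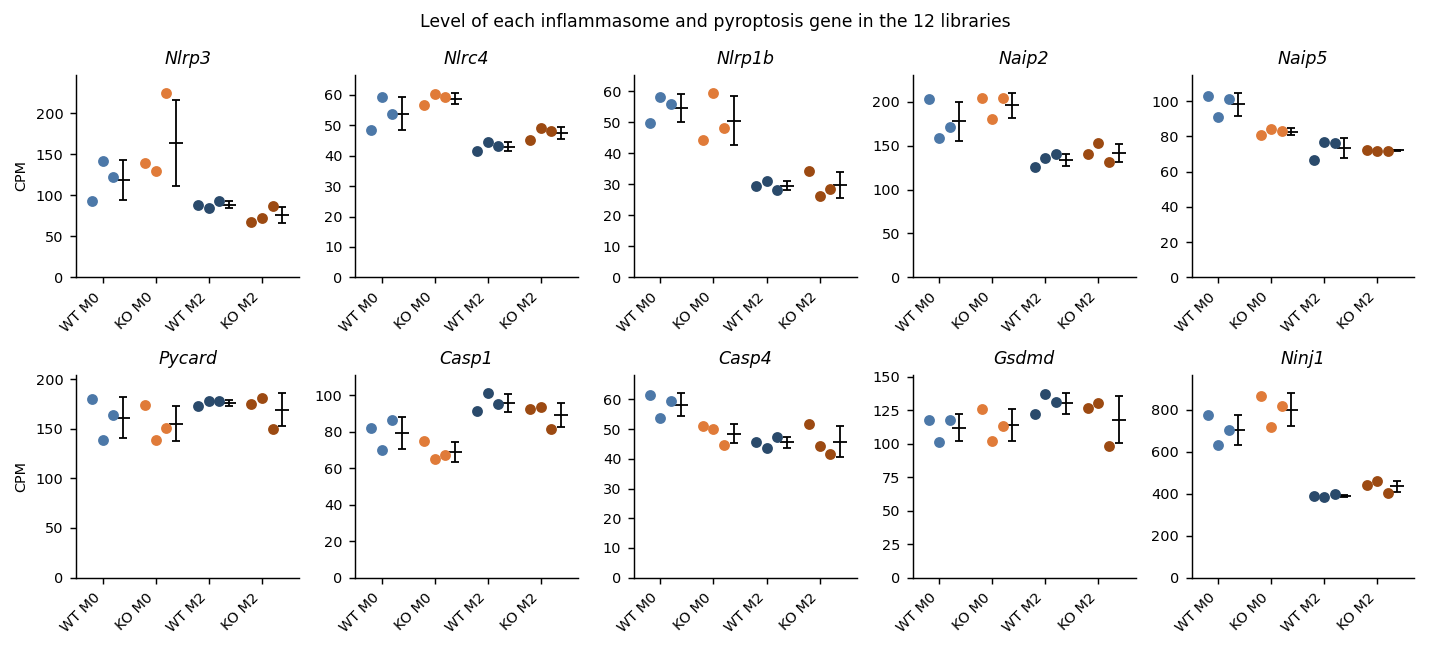
CPM of the 10 genes (y axes from 0) in the 3 libraries of each group, with the group mean and SD as a black bar to the right of the points. The M2 points of Nlrp1b and Ninj1 lie well below their M0 points. Those of Casp1 lie above the M0 points of the same genotype, those of Pycard overlap, and 1 KO M0 point of Nlrp3 stands at 225.

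Whether polarization acted differently in KO cells was tested on all 12 libraries as the difference of the M2 against M0 fold changes. No gene was called by edgeR (0% of 14825 genes tested), although 1327 genes had an unadjusted p under 0.05 and the DESeq2 Wald test called 82 genes. None of the members was called by either tool, and Nlrp3 and Casp4 were the members with an unadjusted p under 0.05 in edgeR. The member values lay between -0.69 for Nlrp3 and 0.27 for Casp4, with a median of 0.0052 beside -0.0016 over all genes.

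The wider pathway was read from 8 lists with 87 other genes, of which 13 were too low to be tested in any comparison. Of 74 tested in WT, 21 were called higher in M2 (28.4%, beside 22.1% of all genes tested) and 20 lower (27%, beside 20.9%). Of 74 tested in KO, 21 were called higher (28.4%, beside 17.4% of all genes tested) and 17 lower (23%, beside 16.4%). Between KO and WT 1 of 73 was called in M0 (1.37%, beside 0.461% of all genes tested) and 1 of 74 in M2 (1.35%, beside 0.98%). The single lists below hold 1 to 14 tested genes each, and their counts are to be read against the same shares of all genes.
Among the other sensors, 4 of 9 tested were called higher and 3 lower in WT, and 4 higher and 2 lower in KO. Nlrp10, a member of the Nlrp family, rose most, by 2.86 in WT (standard error 0.16, adjusted p = 6.2e-09) and 2.75 in KO (standard error 0.17, adjusted p = 7.2e-08), from 2.43 to 3.5 CPM in WT M0 libraries to 19.8 to 21.6 CPM in WT M2. Nlrc5, a transactivator of MHC class I genes, fell (-1.24 in WT and -1.30 in KO, adjusted p = 7e-09 and 4.3e-08).
Genes of licensing and ion flux gave 1 call higher and 5 lower of 14 tested in WT, and 2 higher and 3 lower in KO. Gbp7 and Gbp5, guanylate-binding protein genes, which help expose bacterial lipopolysaccharide to caspase-4, were among those that fell: Gbp7 with -0.98 in WT and -0.56 in KO (adjusted p = 6.4e-07 and 0.0014), and Gbp5 with -2.02 in WT and -1.19 in KO (adjusted p = 1.7e-06 and 0.00075). Kcnk6, a potassium channel gene, rose by 0.71 in WT and 0.75 in KO (adjusted p = 9.2e-07 and 8e-06). Panx1, a membrane channel gene, fell (-0.35 in WT and -0.92 in KO, adjusted p = 0.037 and 7.4e-06), and its WT call was lost without WT M0 library 1 or 3 or WT M2 library 1 or 2 (-0.39 to -0.21). Gbp5 was also the list gene called between KO and WT in M0, with 15.5, 13.9 and 11.3 CPM in WT and 5.67, 5.89 and 6.26 in KO. Its log2 fold change was -1.19 (standard error 0.17, adjusted p = 0.012), with no overlap of the groups, and without WT M0 library 1 it was -1.09 with an adjusted p of 0.083.
Of 6 restraint genes tested in WT, 4 were called higher and 2 lower, and in KO 3 higher and 2 lower. Tnfaip3, an inhibitor of NF-kB signalling, rose by 0.81 in WT and 0.44 in KO (adjusted p = 0.00018 and 0.024), and Cd300a, an inhibitory receptor gene, by 0.65 and 0.27 (adjusted p = 6.4e-06 and 0.038). Both KO calls were weak: each was lost in 4 of 6 fits that left out 1 library, Tnfaip3 without KO M0 library 1 or 2 or KO M2 library 2 or 3 (0.33 to 0.42) and Cd300a without KO M0 library 2 or 3 or KO M2 library 1 or 2 (0.18 to 0.29). Trim30a, an interferon-induced gene known to restrain Nlrp3, fell (-1.51 in WT and -1.34 in KO, adjusted p = 5.7e-09 and 2.7e-07). Cflar, an inhibitor of caspase-8, fell (-0.51 and -0.49, adjusted p = 1.4e-05 and 0.00085).
Of 12 other caspases and cell death kinases, 4 were called higher and 2 lower in each genotype. Zbp1, a sensor of Z-form nucleic acid, fell (-2.30 in WT and -1.91 in KO, adjusted p = 5.8e-09 and 1.5e-06). Casp6 rose by 1.38 and 1.58 (adjusted p = 1.3e-07 and 4.8e-07), Ripk3, the necroptosis kinase gene, by 1.06 and 0.85 (adjusted p = 6.6e-07 and 0.00011), and Casp9 by 0.75 and 0.70 (adjusted p = 8.6e-07 and 1.3e-05).
Beside Gsdmd the only other gasdermin with enough counts was Gsdme, which cleaved caspase-3 activates, and its M2 against M0 values were -0.33 in WT (adjusted p = 0.018) and -0.17 in KO (adjusted p = 0.33). The WT call was lost without WT M0 library 3 (-0.31, adjusted p = 0.052) or WT M2 library 3 (-0.25, adjusted p = 0.084). Membrane repair genes gave 1 call higher of 9 tested in WT, Pdcd6 (0.26, adjusted p = 0.028), and none in KO. The Pdcd6 call was lost without WT M0 library 2 (0.15) or WT M2 library 1 or 2 (0.25 and 0.24).
Priming genes gave 4 calls higher and 5 lower of 14 in WT, and 5 higher and 4 lower in KO. Tlr2, a receptor of bacterial lipoproteins, fell (-1.92 in WT and -2.21 in KO, adjusted p = 7.7e-08 and 2.4e-09), as did the transcription factor gene Irf8 (-0.78 and -0.72, adjusted p = 1e-06 and 6.7e-06). Nfkb1, which encodes an NF-kB subunit, rose by 0.93 and 0.80 (adjusted p = 9.9e-08 and 2.5e-06).

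**Figure D4:**
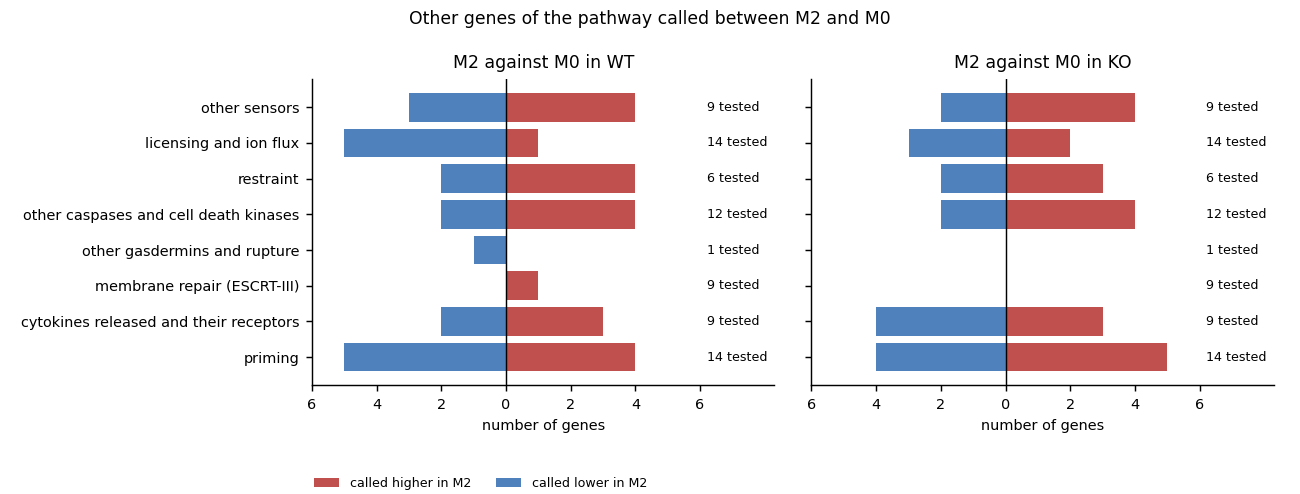
Number of genes of each of 8 pathway lists called higher (red, to the right) or lower (blue, to the left) in M2 than in M0, for WT and KO, with the number tested at the right. The lists hold calls in both directions in most rows, and the membrane repair list holds 1 call among 9 genes in WT and 0 in KO.

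The cargo of the pathway was low in these cells, none of which received a microbial stimulus. Il1b, Il18 and Il1a were chosen for their role after their values were seen. Il1b was at 0.57 to 4.69 CPM in all 12 libraries and was called in no comparison. Its highest value was in WT M2 library 3, beside 1.06 and 0.946 CPM in WT M2 libraries 1 and 2. M2 against M0 for Il1b gave 1.08 in WT (standard error 0.57, adjusted p = 0.14), called in 1 of 6 fits that left out 1 library. In KO it gave -0.27 (standard error 0.49, adjusted p = 0.72). Il18 was at 12.2 to 15.2 CPM in WT M0 and 7.41 to 9.02 in WT M2, and Il1a was at 3.2 to 5.08 CPM in WT M0 and 6.36 to 8.05 in KO M0. Il18 fell with polarization, with -0.79 in WT (standard error 0.14, adjusted p = 0.00046) and -0.59 in KO (standard error 0.15, adjusted p = 0.0074). Il1a fell in KO (-1.30, standard error 0.25, adjusted p = 0.0011), and its value in WT was -0.66 (standard error 0.27, adjusted p = 0.063), which missed the threshold but passed it without WT M0 library 2 (-0.81, adjusted p = 0.024) or WT M2 library 3 (-0.96, adjusted p = 0.02). The difference between the genotypes in these values was not called (-0.63, adjusted p = 0.66). The Il1a KO against WT value in M0, 0.88, was not called (adjusted p = 0.13).
Of the 9 cytokine and receptor genes tested, 3 were called higher and 2 lower in WT, and 3 higher and 4 lower in KO. Il1r1, the signalling IL-1 receptor gene, rose by 2.38 in WT and 2.45 in KO (adjusted p = 2.4e-05 and 1.9e-06), and Il18bp, a decoy for IL-18, fell (-1.97 and -1.62, adjusted p = 0.00011 and 3.5e-06). Lgals3, the galectin-3 gene, rose by 0.81 and 0.84 (adjusted p = 8.5e-06 and 4.3e-06). Il1rn, the IL-1 receptor antagonist gene, was the list gene called between KO and WT in M2, with 272, 252 and 395 CPM in WT and 201, 197 and 224 in KO. The groups did not overlap, and the log2 fold change was -0.56 (standard error 0.12, adjusted p = 0.036). DESeq2 did not call it (adjusted p = 0.39), and the call was lost without WT M2 library 3 (-0.33, adjusted p = 0.065), KO M2 library 1 (-0.54, adjusted p = 0.16) or KO M2 library 2 (-0.52, adjusted p = 0.25). With polarization, edgeR called Il1rn lower in KO (-0.66, standard error 0.11, adjusted p = 0.00033), also in all 6 fits that left out 1 library. In WT its value was 0.27 and not called (standard error 0.17, adjusted p = 0.21). The difference between the polarization fold changes of Il1rn was not called (-0.92, adjusted p = 0.19).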

How the data were processed

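RNA from 12 macrophage cultures was measured, 3 per group, and the column names of the count tables gave the group of each library, while their library numbers are not tied to samples. The authors deposited raw counts per gene, made by trimming (Trimmomatic), removal of duplicate reads (Picard), alignment to GRCm39 (STAR) and strand-specific counting (featureCounts). Removing duplicates can lower the counts of abundant genes. Deposited tables of normalized counts were not used. Library totals ran from 7930525 to 10167695 counts, and the precision of a fold change is set by the spread of 3 libraries.

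Of 56941 identifiers, 56323 matched a GENCODE annotation of GRCm39. Tests used edgeR 4.0.16 in R 4.3.3 (quasi-likelihood, TMM, filterByExpr), fitted to the 6 libraries compared or, for the interaction, to all 12, and p-values were adjusted over all genes by Benjamini-Hochberg. Calls needed an adjusted p below 0.05 and, except for the interaction, a change of more than 1.2-fold. Levels are CPM after TMM over 12 libraries. The fits were tested on simulated data. DESeq2 1.42.0, other scaling, no filter, no fold limit, a fit of all libraries, a replicate block, left-out libraries and another gene length were alternatives. Named genes are the 10 members and at most 4 genes of each list, those with the smallest adjusted p over the tests, and other genes are named as chosen later. One gene that the rule names is not reported here. The members and lists were chosen with earlier results of these data known.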

Additional observations from a re-analysis of the deposited data

How the results depend on the processing

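The calls of members between M2 and M0 were little changed, at 7 to 9 in WT and 6 in KO over the alternatives and at 6 to 9 and 5 to 6 with 1 library left out. No alternative other than a left-out library turned the direction of any of the 50 member fold changes. Without the filter on low counts 1 member, Nlrp3, was called between KO and WT in M0 and 1, again Nlrp3, by the interaction test. With a library left out, 0 or 1 member was called between KO and WT in M2.

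The number of all genes called between KO and WT depended on the settings. In M0, 65 genes were called, against 209 by DESeq2, 532 without the filter, 248 in the fit of all 12 libraries and between 20 (without WT M0 library 3) and 302 (without WT M0 library 2) with 1 library left out. In M2, 137 were called, against 360 without the filter, 60 in the fit of all libraries and between 53 (without KO M2 library 2) and 215 (without KO M2 library 3) with 1 left out. The interaction called 0 genes, against 82 by DESeq2, 341 without the filter and 0 to 77 with 1 library left out. The cause was not tested. With the library number as a replicate block, 284 genes were called in M0 and 289 in M2 between KO and WT, with no change in the calls of members, and the correlations of same-numbered libraries (-0.268 to 0.336) gave no comparison in which every pair was over 0.1, so the numbers were not taken to pair the libraries.

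Values near 0 that changed sign with 1 library left out ranged as follows. KO against WT in M0 ran from -0.15 to 0.03 for Pycard and from -0.062 to 0.095 for Gsdmd. In M2 it ran from -0.11 to 0.092 for Nlrp1b, -0.081 to 0.012 for Naip5, -0.11 to 0.022 for Pycard and -0.077 to 0.073 for Casp4. M2 against M0 in KO ran from -0.02 to 0.17 for Gsdmd. The interaction ran from -0.076 to 0.074 for Nlrc4, -0.004 to 0.24 for Nlrp1b, -0.097 to 0.087 for Pycard and -0.12 to 0.029 for Ninj1.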
